A study of Mus musculus with 6 samples.

Results

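Galectins are lectins that bind galactose-containing sugars on cell surface and secreted glycoproteins. Some members carry a single sugar-binding domain and pair up (galectin-1, galectin-2 and galectin-7), some carry a pair of different domains in 1 chain (galectin-4, galectin-8 and galectin-9), and galectin-3 joins 1 domain to a long flexible tail. Macrophages are a known source of galectin-3, once named Mac-2, and of galectin-1 and galectin-9, which act on T cells, while galectin-2, galectin-4 and galectin-7 are better known from epithelia. The genes described here are the 7 galectin genes Lgals1, Lgals2, Lgals3, Lgals4, Lgals7, Lgals8 and Lgals9, and Lgals3bp, which encodes a secreted glycoprotein that galectin-3 binds and is not itself a galectin. They were chosen by symbol, with earlier results of these data known, including the level of Lgals2. All 8 were present among the 23946 rows of the table.

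Macrophages were sorted as CD45+CD11b+F4/80+ cells from omentum (OM) and from mesenteric adipose tissue (MY), both of C57BL/6 mice, and their RNA was sequenced. Each tissue was taken from naive mice, from mice injected with ID8 cells 24 h or 7 d earlier. The ID8 line is a murine ovarian carcinoma derived from the same strain. The methods describe the animals as females of 6 to 8 weeks with ID8 cells given intraperitoneally, and the design lists 9 mice processed as 3 groups of 3. The methods state that 3 omenta were combined in each tube, and whether mesenteries were combined in the same way is not given in the sources used here. Each of the 6 conditions is 1 library. With no replicate of a condition there is no p-value for a pair of libraries, a difference between 2 libraries describes those libraries, and neighbours in any order of levels cannot be called different. The tissues were also compared over the 3 times together, with the time as a block.

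Values are fragments per kilobase of transcript per 1000000 aligned reads (FPKM), which are per length and can be compared between genes. Differences are on the log2(FPKM + 1) scale, where the added 1 shrinks differences between low values. Of all rows, 13064 reached an FPKM of 1 in at least 1 library and are called expressed, and all 8 genes were among them. The sort markers were present throughout, with all 11 genes of the macrophage list at or above an FPKM of 1 in each library. This does not measure purity. The 5 B cell and 6 neutrophil genes in the table also reached 1 in each library. In each MY library the 6 T cell and 6 NK cell genes did too, with sums of 999.6 and 1657 in naive MY. The reads behind a single FPKM are not known. From the commonest ratio of values below 0.1, the depth relative to naive MY was about 0.853 to 1.48. A value listed at 0 can be a failed estimate: Cd74, which encodes the invariant chain of MHC class II, was listed at 0 in OM at 24 h and at no less than 11323 in the other 5 libraries.

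By position, the genes fall into neighbouring pairs and single loci. In the NCBIM37 assembly (mm9) Lgals2 lies on the minus strand of chromosome 15 from 78681292 to 78685959 and Lgals1 on the plus strand from 78757155 to 78760895, with 71195 bases and 3 coding genes (Gga1, Sh3bp1 and Pdxp) between them. Lgals4 (29618813 to 29626722) and Lgals7 (29648872 to 29651303) follow each other on the plus strand of chromosome 7, 22149 bases apart with 0 annotated coding genes between. Lgals3 is on chromosome 14, Lgals8 on chromosome 13, and Lgals9 and Lgals3bp on chromosome 11. None of the 75-base windows of the longest coding transcripts, from 516 windows in Lgals2 to 2769 in Lgals8, occurred in the coding transcripts of any other annotated gene (0 shared windows for each of the 8 genes). The table also lists Lgals6, a close copy of Lgals4 that this annotation does not name, so the split of reads between Lgals4 and Lgals6 remains uncertain.

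The 250 bases upstream of the annotated start are shown for Lgals2 and Lgals7, the 2 members that were below an FPKM of 3 in 4 libraries and above 50 in both omental libraries after injection. They are RefSeq sequences of build GRCm38.p6, written 5′ to 3′ in the direction of the gene.
Lgals2 (chr15:78855530-78855779, minus strand): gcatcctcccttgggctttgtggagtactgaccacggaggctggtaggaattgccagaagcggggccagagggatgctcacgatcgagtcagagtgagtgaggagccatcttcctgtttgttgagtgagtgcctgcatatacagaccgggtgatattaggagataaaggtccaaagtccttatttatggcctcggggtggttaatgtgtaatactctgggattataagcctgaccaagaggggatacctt
Lgals7 (chr7:28864136-28864385, plus strand): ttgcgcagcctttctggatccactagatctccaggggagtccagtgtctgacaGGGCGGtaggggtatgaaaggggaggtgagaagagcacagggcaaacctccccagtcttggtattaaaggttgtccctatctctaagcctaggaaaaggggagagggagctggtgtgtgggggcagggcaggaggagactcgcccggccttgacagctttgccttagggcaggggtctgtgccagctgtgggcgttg
Capitals mark GGGCGG, the GC box, which was searched on both strands together with TATAAA and TGANTCA (an AP-1 type motif), none of which overlapped another. Lgals7 held GGGCGG 197 bases before its start, and Lgals2 held none of the 3 motifs in this window. Of 32851 promoter windows of the same length, 32.7% held GGGCGG, 12.4% held TATAAA and 6.75% held TGANTCA. Among the 7 members that matched the RefSeq table, Lgals3 was the other one with GGGCGG, and 0 held TATAAA or TGANTCA. The windows contained 6 CpG in Lgals2 and 5 in Lgals7, beside a median of 6 over all windows. Lgals1 was not matched.

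Galectin transcripts took up more of the omental RNA after injection. The 8 genes together summed to an FPKM of 1058 in naive OM, 3114 at 24 h and 3202 at 7 d, which was 0.17%, 0.436% and 0.571% of the FPKM of those libraries. In MY they summed to 787.3 in the naive library, 713.6 at 24 h and 687.7 at 7 d, or between 0.125% and 0.149%. Lgals1 made up 57.8%, 64.5% and 80% of the omental sum in the same order. Lgals1 was the highest of the 8 genes in 5 libraries, and Lgals3 was the highest in MY at 24 h. Lgals3 was second wherever Lgals1 was first, Lgals8 lay in the range of 22.9 to 30.2 in every library, and Lgals4 never exceeded 3.79.

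**Figure D1:**
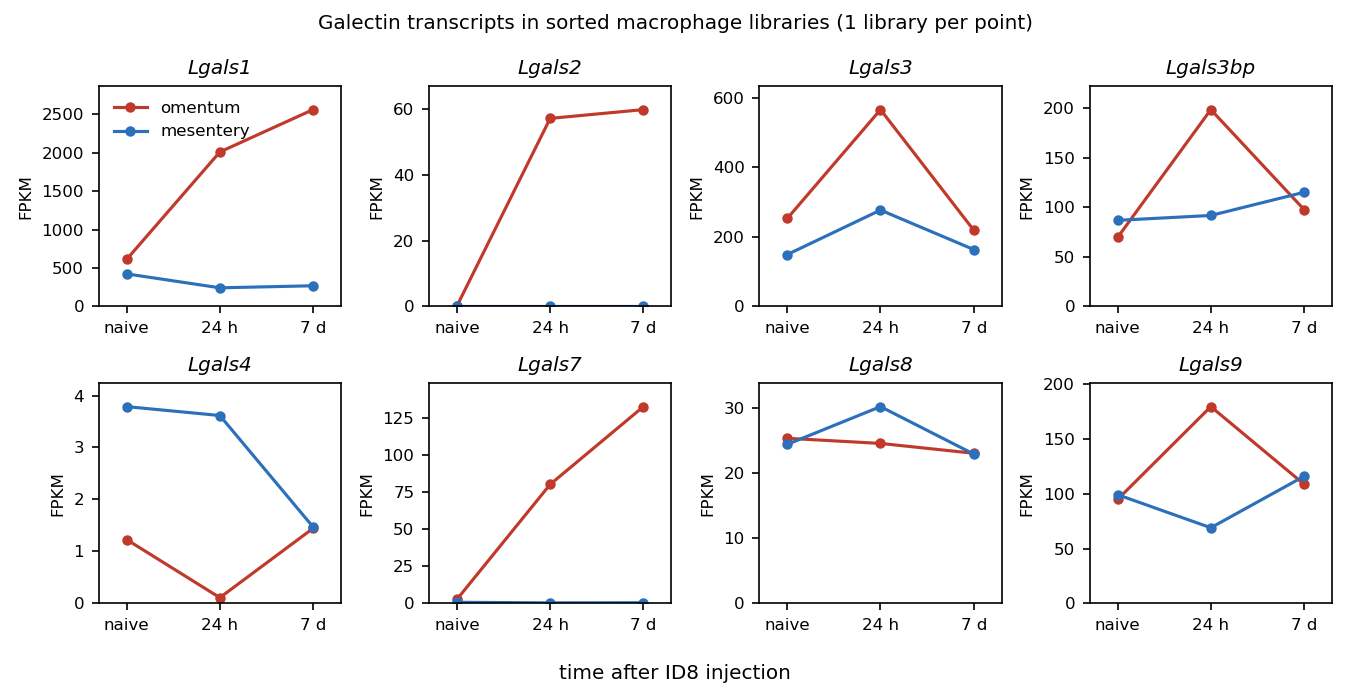
FPKM (linear axes from 0, each with its own range) of the 8 genes against time after ID8 injection, with 1 library per point, omentum in red and mesentery in blue. Lgals1, Lgals2 and Lgals7 were higher in OM at 24 h and 7 d than in naive OM, Lgals3, Lgals3bp and Lgals9 peaked in OM at 24 h, and Lgals8 stayed between 22.9 and 30.2.

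Lgals1 encodes galectin-1, which dimerises, binds CD45 and CD43 on T cells and is known for dampening T cell responses. Its FPKM was 611.5 in naive OM, 2009 at 24 h and 2560 at 7 d. In MY it was 423.5 in the naive library, 241.9 at 24 h and 268.5 at 7 d. The ranges did not overlap, and the lowest omental library exceeded the highest mesenteric one 1.44-fold. Of all expressed genes, 16.7% were higher in every omental than in every mesenteric library. Against naive OM the log2 difference was 1.71 at 24 h and 2.06 at 7 d, a fold of 3.29 and 4.19. Against naive MY it was -0.81 and -0.66, both short of 2-fold. Among expressed genes ordered by FPKM, Lgals1 stood at place 130 in naive OM, 32 at 24 h and 13 at 7 d, and between 156 and 357 in MY.

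Lgals2 encodes galectin-2, a dimerising galectin known mainly from the epithelium of the digestive tract. Its FPKM was 0.149 in naive OM, 57.1 at 24 h and 59.8 at 7 d, and it was listed at 0 in all 3 MY libraries. It was therefore near absent from the table in 4 libraries and at a like level in both omental libraries taken after injection. The log2 difference against naive OM was 5.66 at 24 h and 5.73 at 7 d, in each case place 5 from the top of the expressed genes. The naive value is too low for its ratio to be read as a size, and no fold is given against MY.

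Lgals7 encodes galectin-7, known from stratified epithelia. Its FPKM was 2.76 in naive OM, 80.0 at 24 h and 132.3 at 7 d, against 0.770, 0.378 and 0.475 in MY at the same times. Every omental library lay above every mesenteric one, as for 16.7% of all expressed genes, with 3.58-fold between the lowest of the first and the highest of the second. Against naive OM, Lgals7 was 29-fold higher at 24 h and 48-fold higher at 7 d, with log2 differences of 4.43 and 5.15. Its neighbour on chromosome 7, Lgals4, which encodes a galectin of gut epithelium with a pair of sugar-binding domains, showed the reverse order between tissues at low levels. Lgals4 had an FPKM of 1.23, 0.111 and 1.44 in naive OM, OM at 24 h and OM at 7 d, and of 3.79, 3.62 and 1.47 in the MY libraries. The 2 tissues nearly met at 7 d, where Lgals4 differed by -0.02 on the log2 scale. The order of Lgals4, lower in every omental library, was shown by 17.7% of all expressed genes. The coding genes between Lgals2 and Lgals1 stayed within 2-fold of naive OM in both later omental libraries, as most expressed genes did. Of all expressed genes, 11.9% were higher and 6.45% lower at 24 h, and 11.0% and 1.96% at 7 d. Between the naive tissues Sh3bp1 was lower in OM (FPKM 60.1 against 125.2, -1.05), where 8.05% of all expressed genes were. Gga1, for example, stood at 43.9, 47.0 and 32.3 in OM and at 45.6, 40.2 and 35.8 in MY.

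The summed level of mesothelial genes was higher in the same omental libraries as Lgals2 and Lgals7, while that of fibroblast genes was lower in OM at 24 h than in naive OM. All 6 genes of the mesothelial list (Msln, Upk3b, Upk1b, Wt1, Lrrn4 and Krt19) had an FPKM of at least 1 in each omental library and 0 of 6 reached it in any mesenteric one. Their summed FPKM was 69.9 in naive OM, 740.7 at 24 h and 782.4 at 7 d, and 0.235, 0.0830 and 0.567 in MY. Upk1b and Wt1 were listed at 0 in naive MY, Lrrn4 at 24 h and Wt1 at 7 d. Of the epithelial list, 4 to 5 of 5 genes reached an FPKM of 1 in the omental libraries and 1 to 2 in the mesenteric ones. It summed to 44.7, 284.9 and 256.1 in OM and to between 8.87 and 10.9 in MY, with no gene at 0. Krt8 (FPKM 19.9, 129.8 and 111 in OM) and Krt18 (9.60, 145.1 and 116.5), both keratin genes, gave most of the omental sum at 24 h and 7 d, whereas Epcam, the gene of an epithelial adhesion molecule, stood at 13.0, 5.46 and 9.44, a difference of -1.12 at 24 h. The 6 fibroblast genes summed to 344.6, 221.5 and 1190 in OM and to between 2.08 and 3.10 in MY. Of these, 5 to 6 reached an FPKM of 1 in OM and 1 did in MY, and Pdgfra was listed at 0 in MY at 24 h. In OM at 24 h against naive OM their median difference was -0.65, with 0 of 6 higher and 1 lower, and at 7 d it was 1.31. The part of such cells in the levels of Lgals2, Lgals7 and Lgals1 was not tested. In these bulk libraries fewer cells of a type and less RNA per cell cannot be told apart.

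For each galectin spanning at least 2 on the log2 scale, the genes with the most similar profile were sought among the other genes that reached an FPKM of 10 in any library, 7997 for Lgals1, Lgals2 and Lgals7 and 7998 for Lgals4, which did not reach it. Likeness was the root mean square difference of log2(FPKM + 1), each gene centred on its mean over the 6 libraries, and it is a description over libraries of 2 tissues and 3 times. The nearest to Lgals2 were Tspan8 (0.13), which encodes a tetraspanin, Tmem184a (0.30) and Me1 (0.41), the gene of cytosolic malic enzyme, and Lgals7 was at place 5 (0.45). The nearest to Lgals7 were Aqp5 (0.36), a water channel gene, and Aldh1a1 (0.39), a retinaldehyde dehydrogenase gene, with Lgals2 at place 3. Of the mesothelial list, Wt1, which encodes a transcription factor of mesothelium, was the closest gene to both, at place 32 for Lgals2 (0.80) and at place 15 for Lgals7 (0.58), and Krt19 the farthest, at places 279 and 198. Genes of 2 other lists lay nearly as close. Krt18 of the epithelial list was at place 44 for Lgals2 (0.91) and 19 for Lgals7 (0.63), and Gata6 of the resident macrophage list, which encodes a transcription factor of peritoneal macrophages, was at place 56 for Lgals2 and 49 for Lgals7 (0.84). Of the same lists, Epcam was at places 5725 and 5128 and Timd4 at 7747 and 7735. The median difference to all genes searched was 2.78 for Lgals2 and 2.79 for Lgals7. This comparison with marker genes was chosen after the values had been seen.

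**Figure D2:**
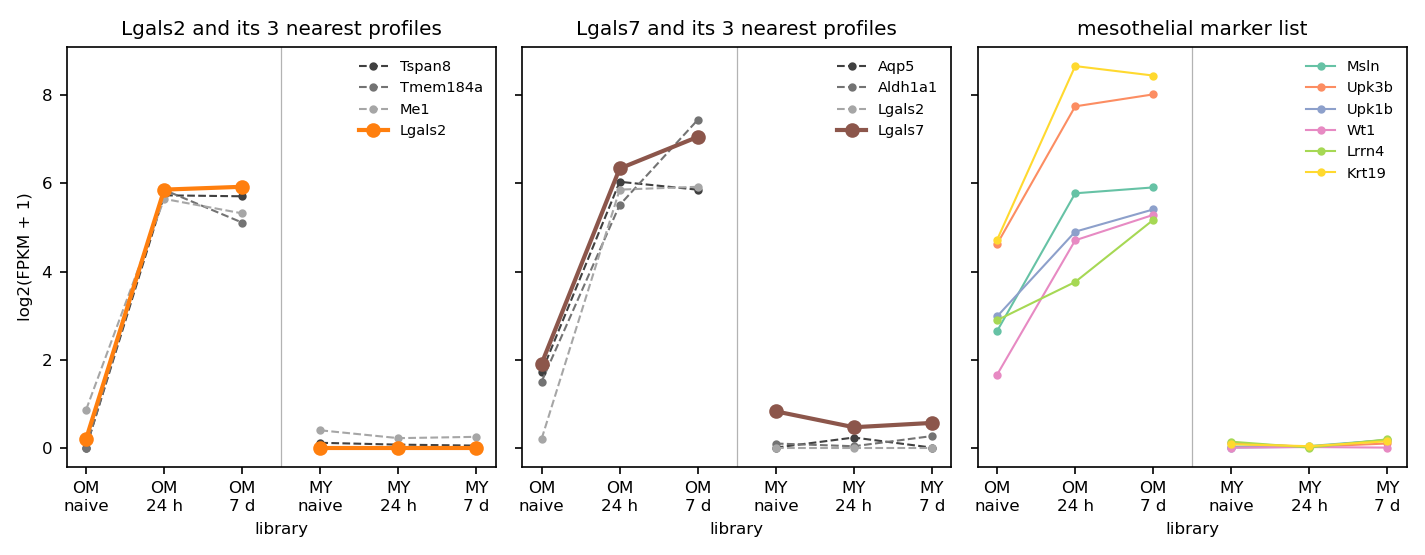
log2(FPKM + 1) in the 6 libraries for Lgals2 with its nearest profiles (left), for Lgals7 with its nearest profiles (middle) and for the 6 mesothelial marker genes (right), with 1 library per point and lines joining libraries of 1 tissue. Lgals2 and Lgals7 were high in OM at 24 h and 7 d (FPKM 57.1 to 132.3) and below 1 in MY, and the mesothelial genes were below 1 in MY too.

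The profile of Lgals1 differed from that of both, with a root mean square difference of 1.55 to Lgals2 and 1.48 to Lgals7. Its nearest genes were Oasl2 (0.10), an interferon-induced gene, Vegfa (0.17), the gene of a vascular growth factor, and Atp9a (0.19). Oasl2 had an FPKM of 11.7, 41.6 and 44.3 in OM and of 7.03, 4.33 and 4.31 in MY. For Lgals4 the nearest were Fnbp4 (0.12), Clasrp (0.16) and 1810026B05Rik (0.16).

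Lgals3 encodes galectin-3, which macrophages express strongly and which also binds damaged lysosomes and the MERTK and TREM2 receptors. Its FPKM was 252.7 in naive OM, 565.5 at 24 h and 219.1 at 7 d, and 149.1, 276.8 and 163.5 in MY. It was thus highest at 24 h in both tissues and close to its naive level at 7 d, and the ranges of the tissues overlapped. The log2 difference from the naive library at 24 h was 1.16 in OM and 0.89 in MY, and the omental value became 0.96 after each library was rescaled to a sum of 1000000. At 7 d it was -0.20 and 0.13.

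Lgals3bp, the galectin-3 binding glycoprotein, had an FPKM of 69.6 in naive OM, 198.4 at 24 h and 97.7 at 7 d, and of 86.8, 91.7 and 115.1 in MY. The omental library at 24 h stood above the other 5, which lay between 69.6 and 115.1. The difference between OM at 24 h and naive OM was 1.50. Lgals9 encodes galectin-9, a ligand of the inhibitory receptor TIM-3, and had an FPKM of 94.7, 179.2 and 108.6 in OM and of 99.0, 68.9 and 115.8 in MY. It too was highest in OM at 24 h, while MY at 24 h was its lowest library. At 24 h it was 2.6-fold higher in OM than in MY, and its log2 difference from naive OM was 0.91. Lgals8, whose product detects damaged vesicles, had an FPKM of 25.3, 24.5 and 23.0 in OM and of 24.4, 30.2 and 22.9 in MY. Its highest and lowest libraries were 1.32-fold apart, the narrowest range of the 8 genes.

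In OM the sum of the macrophage list was highest at 24 h, as Lgals3, Lgals3bp and Lgals9 were. In MY this sum and Lgals3 were highest at 24 h too, whereas Lgals9 was lowest there and Lgals3bp was highest at 7 d. The list summed to an FPKM of 9448 in naive OM, 37874 at 24 h and 8200 at 7 d, and to 4506, 7102 and 4350 in MY, with Lyz2, the lysozyme gene, giving most of it and none of its genes at 0. Emr1, which encodes F4/80, was at 27.4, 135 and 26.5 in OM and at 20.5, 68.7 and 37.5 in MY. Ptprc, the CD45 gene of the same list, went the other way and was lowest at 24 h in both tissues. It stood at 182.2, 105.8 and 124.4 in OM and at 188.4, 157.8 and 208.3 in MY. The neutrophil list, with 6 of 7 genes in the table and all 6 above an FPKM of 1 in every library, summed to 5867, 13653 and 14551 in OM and to between 229.7 and 660.5 in MY. The share of the galectin levels that belongs to these cells was not tested.

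Most of these genes differed by less than 2-fold between the naive tissues. On the 2-fold rule 1 of 8 was higher in naive OM than in naive MY (Lgals7, 1.09) and 1 was lower (Lgals4, -1.10), beside 8.18% of all expressed genes higher and 8.05% lower. Both rest on an FPKM under 4 in each library. Lgals1 (0.53) and Lgals3 (0.76) were higher in OM by less than 2-fold, and Lgals8 and Lgals9 were within 0.06 of 0. The median of the 8 genes was 0.13, and that of all expressed genes 0.01.

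In OM at 24 h against naive OM, 5 of 8 were higher (Lgals1, Lgals2, Lgals3, Lgals3bp and Lgals7), where 11.9% of all expressed genes were, and 1 was lower by just 2-fold on this scale (Lgals4, FPKM 0.111 against 1.23), where 6.45% were. The median was 1.33 for the 8 genes and 0.00 for all. At 7 d 3 of 8 were higher (Lgals1, Lgals2 and Lgals7) beside 11.0% of all genes, and 0 were lower beside 1.96%, with a median of 0.34. Between the later and the earlier omental library, Lgals3 (-1.36) and Lgals3bp (-1.01) were lower, where 4.52% of all genes were, and Lgals4 was higher (1.14), where 7.03% were. Lgals1 (0.35), Lgals2 (0.06) and Lgals7 (0.72) did not pass 2-fold between these libraries. These comparisons share libraries with each other.

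In MY, 0 of 8 passed 2-fold in either direction, at 24 h (2.8% of all genes higher, 1.52% lower) or at 7 d (0.498% higher, 2.29% lower). The medians of the 8 genes were -0.03 and -0.04. The nearest to the threshold were Lgals3 at 24 h (0.89) and Lgals4 at 7 d (-0.95), and Lgals4 passed it with a pseudocount of 0.1 (-1.31) and after rescaling to a sum of 1000000 (-1.13).

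Between the tissues at 24 h, 6 of 8 were higher in OM (all but Lgals4 and Lgals8) where 13.9% of all genes were, and Lgals4 was lower (-2.05) where 10.2% were. With a pseudocount of 5 none of the 2-fold differences of Lgals4 remained, and this one became -0.75. At 7 d 3 of 8 were higher in OM, namely Lgals1 (3.25), Lgals2 (5.93) and Lgals7 (6.50), beside 14.1% of all genes, and 0 were lower beside 4.99%. Over all times, Lgals1, Lgals2 and Lgals7 were higher in every omental than in every mesenteric library and Lgals4 was lower, an ordering that 16.7% and 17.7% of all expressed genes showed. With at least 2-fold between the nearest libraries, 1 of 8 remained higher (Lgals7) beside 2.73% of all genes, and 0 lower beside 2.12%. From the naive and 7 d libraries alone the count was 1 as well. These are a subset of the same libraries, so Lgals7 was bound to be counted again.

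A limma fit of log2(FPKM + 1) over all 6 libraries, with tissue and time as terms and Benjamini-Hochberg adjustment over all 13064 expressed genes, compared the tissues over the 3 times together. It leaves 2 residual degrees of freedom and counts any change of the tissue difference with time as error. At an adjusted p under 0.05, 0 of 8 were higher in OM, beside 5.26% of all expressed genes, and 0 were lower, beside 4.81%. At an unadjusted p under 0.05 there were 4 of 8 (Lgals1, Lgals2, Lgals3 and Lgals7), beside 3832 of 13064 expressed genes. Each of the 4 was higher in OM in 3 of 3 pairs of the same time. How many of all expressed genes were so was not counted, so no weight is put on it. For Lgals2 the naive pair was an FPKM of 0.149 against 0. The mean difference was 4.49 for Lgals7 (SE 1.07, limma adjusted p = 0.0613), 2.28 for Lgals1 (SE 0.57, limma adjusted p = 0.0688), 0.74 for Lgals3 (SE 0.18, limma adjusted p = 0.0691) and 4.0 for Lgals2 (SE 1.18, limma adjusted p = 0.0985). With the naive pair left out, which leaves 1 residual degree of freedom, 3 of 8 passed, namely Lgals2 (limma adjusted p = 0.00988), Lgals7 (0.0106) and Lgals1 (0.0153). In that fit 5.43% of all expressed genes were higher and 2.15% lower. With the 24 h pair left out 0 of 8 passed (smallest limma adjusted p = 0.275), and with the 7 d pair left out 0 of 8 (0.133). The naive pair was the one in which these 3 genes differed least (Lgals2 0.20, Lgals7 1.09, Lgals1 0.53), as was known before the fit. Small p-values without it were therefore likely in advance, and no conclusion is drawn from them. The fit also treats libraries of different times as replicates of a tissue.

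**Figure D3:**
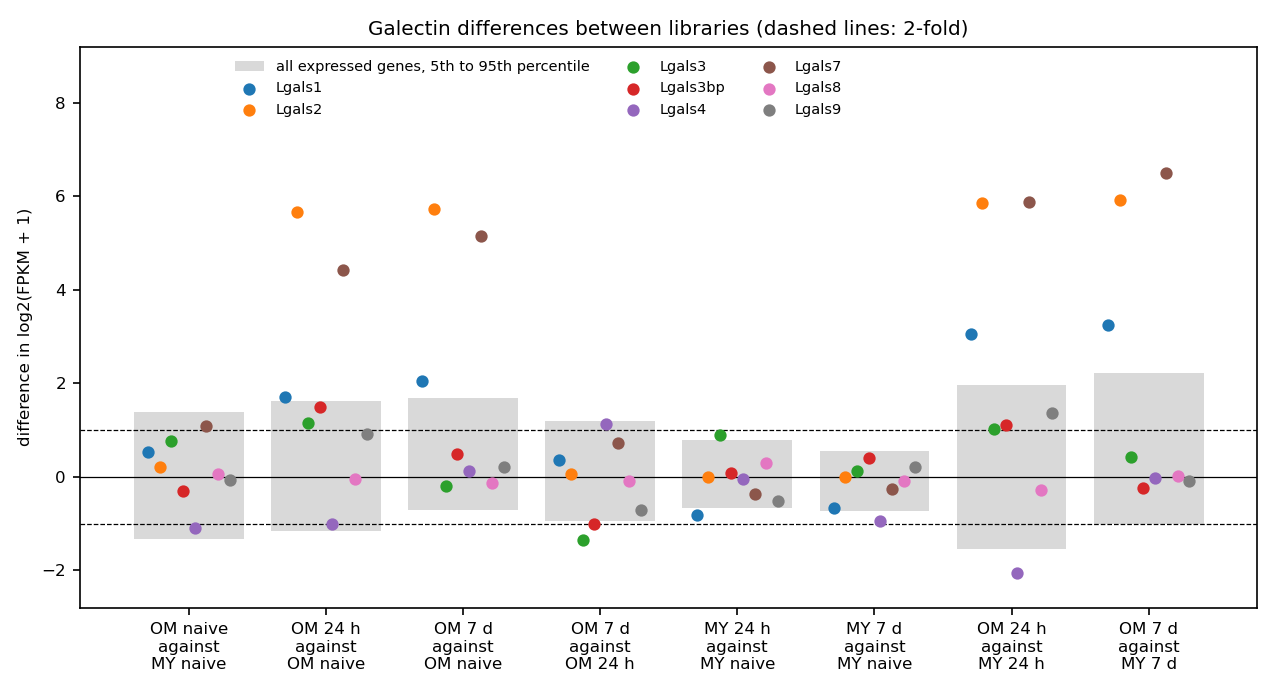
Difference in log2(FPKM + 1) of the 8 genes in the 8 pairs of libraries, each of 1 library against 1, with grey bars from the 5th to the 95th percentile of all 13064 expressed genes and dashed lines at 2-fold. Lgals2 and Lgals7 lay between 4.43 and 6.50 in the omental comparisons with naive OM and in those with MY after injection, and all 8 genes lay within 2-fold in MY over time.

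Rescaling each library to a sum of 1000000 shifted the median of all genes by 0.31 in OM at 7 d against 24 h, to 0.36, and by -0.28 in OM against MY at 24 h, to -0.27. It lowered the share of higher genes among those called from 50.4% to 38.6% between the naive tissues, from 64.9% to 50.4% in OM at 24 h, from 64.8% to 49.4% in MY at 24 h and from 57.6% to 41.2% between the tissues at 24 h, and raised it from 60.9% to 81.8% in OM at 7 d against 24 h. Under this scaling Lgals3 (0.71) and Lgals3bp (0.79) no longer passed 2-fold between the tissues at 24 h, nor did Lgals3bp between the later omental libraries (-0.67), and Lgals7 passed it there (1.07).

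The other rows of the family were low. Lgalsl, which encodes a galectin-related protein, had an FPKM of 1.36, 0.570 and 2.18 in OM and of 2.61, 2.69 and 2.34 in MY. Grifin, named for a galectin-related protein of the lens, was listed at 0 in OM and stood at 0.998, 0.836 and 0.461 in MY. Lgals12 and Lgals6 stayed below an FPKM of 0.2 in every library.

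Galectins act through the glycoproteins they bind, and 24 of 25 genes of a list of such ligands and receptors were expressed (Calcoco2, an autophagy receptor gene, was not). Between the naive tissues 10 of 24 were higher in OM and 1 was lower, with a median of 0.80, beside 8.18% and 8.05% of all expressed genes. The largest differences were in Fn1 (5.05, FPKM 94.2 against 1.87), the gene of fibronectin, Trem2 (2.23, 7.50 against 0.813) and Clec7a (1.91), which encodes dectin-1. Cd7 (-1.77), a T cell glycoprotein that galectin-1 binds, was the gene lower in OM, followed short of 2-fold by Spn (-0.83) and Lag3 (-0.77).

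In OM at 24 h 12 of 24 were higher than in naive OM and 4 were lower, with a median of 0.92, beside 11.9% and 6.45% of all expressed genes. Trem2, a lipid-sensing receptor gene of phagocytes, was higher by 4.49 (FPKM 190.6 against 7.50) but stood at 18.9 at 7 d. Pdpn (2.11), which encodes podoplanin, and Itga5 (1.96), an integrin chain gene, followed. Lamp1 (1.40) and Lamp2 (1.16), whose glycoproteins coat the lysosome, were higher as well. Lower were Cd7 (-3.14), Cd2 (-2.68), Spn (-1.45) and Itgb1 (-1.28). Over the same libraries the T cell list summed to 134 in naive OM and 26.8 at 24 h, with 6 and 5 of 6 genes at an FPKM of 1, and the NK cell list to 245.1 and 13.6, with 6 and 3 of 6. Neither list had a gene at 0, and their part in the lower Cd7 and Cd2 was not tested.

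At 7 d 3 of 24 were higher than in naive OM and 1 was lower, with a median of 0.09, beside 11.0% and 1.96% of all expressed genes. The higher genes were Pdpn (2.16), Trem2 (1.23) and Itga5 (FPKM 13.9 against 6.47), and the lower one was Spn (-1.03). Havcr2, which encodes the galectin-9 receptor TIM-3, lay between 7.02 and 13.8 in all 6 libraries and was highest in OM at 24 h, as Lgals9 was. In MY 3 of the 24 genes were higher and 2 lower at 24 h, and 0 were higher and 1 lower at 7 d, where 2.8% and 1.52% of all expressed genes were at 24 h and 0.498% and 2.29% at 7 d. Fn1 was among the higher ones at 24 h (2.96), as were Trem2 (1.60) and Mertk (1.32), and Spn (-1.32) and Lag3 (-1.36) were the lower ones.

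**Figure D4:**
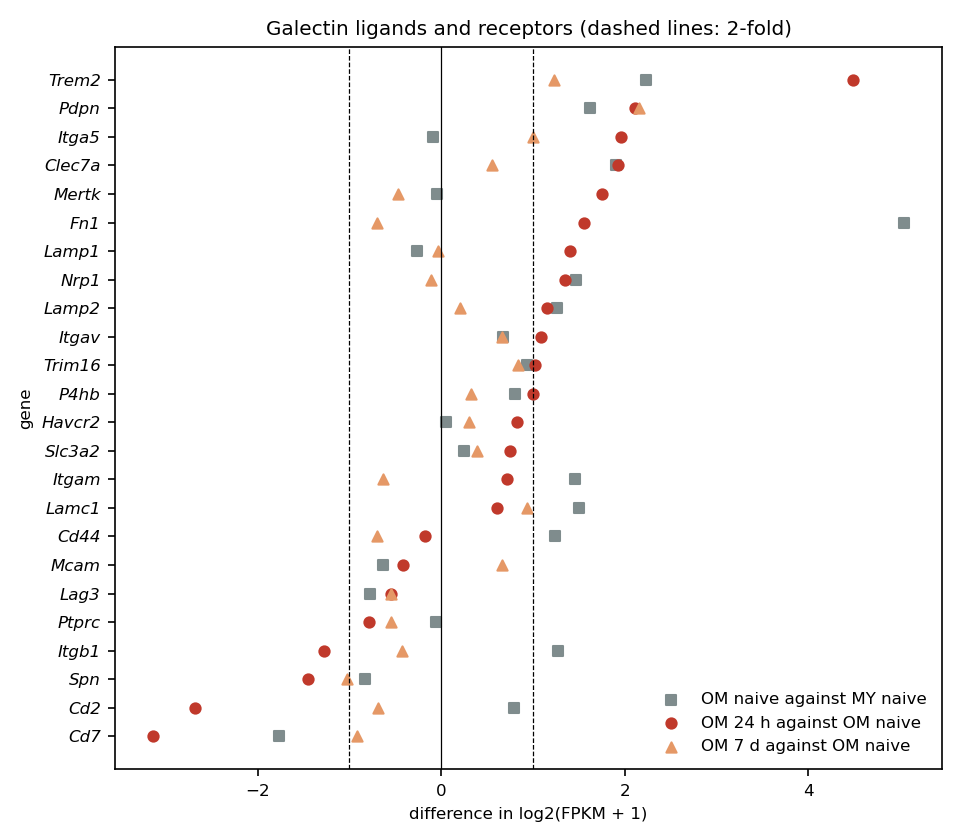
Difference in log2(FPKM + 1) of the 24 expressed ligand and receptor genes in 3 comparisons of 1 library against 1, ordered by OM at 24 h against naive OM, with dashed lines at 2-fold. Trem2 reached 4.49 and Cd7 -3.14 in OM at 24 h, and Fn1 was 5.05 higher in naive OM than in naive MY.

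Of the enzymes that build or trim galectin-binding sugars, all 12 listed genes were expressed in each library. Between the naive tissues 2 of 12 were higher in OM, beside 8.18% of all expressed genes, namely St3gal1 (1.19), a sialyltransferase gene, and Mgat1 (1.02), which starts the branching of N-glycans. In OM at 24 h 3 of 12 were higher than in naive OM, beside 11.9% of all expressed genes, namely Gcnt1 (1.30), which branches O-glycans, B4galt1 (1.25), which adds galactose, and Mgat4b (1.21), an N-glycan branching enzyme gene. At 7 d 0 of 12 passed 2-fold in OM, beside 11.0% of all expressed genes higher and 1.96% lower. In MY 0 of 12 did at either time. There 2.8% of all expressed genes were higher and 1.52% lower at 24 h, and 0.498% and 2.29% at 7 d, so a count of 0 is near these shares. St6gal1, whose sialic acid cap blocks galectin-1 binding, stood at 45.8, 37.9 and 37.0 in OM and at 28.2, 19.7 and 48.4 in MY.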

How the data were processed

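Macrophage RNA from 6 conditions, 1 library each, was analysed. Per the methods, paired reads of 75 bases passed through FastQC 0.11.4, STAR 2.4.2a placed them on NCBI37/mm9 using a UCSC gene annotation, and the authors obtained FPKM from Cufflinks 2.2.1. The deposited table holds these FPKM by gene symbol, with columns that sum to between 526887 and 713863. Whole reads could not be recovered, because read values depend on gene length and on shared reads, so no count test was run. Depth was estimated only relatively, and the precision of single values is unknown.

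With Python 3.11.15, numpy 2.4.6 and pandas 2.3.3, differences of log2(FPKM + 1) were taken and counted at 2-fold, the threshold of the study's gene selection, over the 13064 genes that reached an FPKM of 1 in any library. Figures used matplotlib 3.10.9. With 1 library each, a pair of conditions was not tested. The tissues were compared over the 3 times with R 4.3.3 and limma 3.58.1 (trended variance, time as block), a fit added after the values had been seen. The members, lists and the profile comparison were chosen with earlier results of these data known, including the level of Lgals2. Named genes were all members and other galectin rows, the 3 largest differences of each list in each direction with others chosen after their values were seen, the 3 nearest profiles, and marker genes. Of the marker lists, Ly6g and Ighm were absent from the table, and the lists of B cells (summed FPKM 3967, 904.4 and 2447 in OM, 524.3 to 1539 in MY), monocytes (1485 to 2090 and 354.7 to 458.1), resident macrophages (72.8 to 376.2 and 42.7 to 90.7), dendritic cells (75.2 to 155.2 and 593.1 to 873.4), mast cells (4.21 to 47.3 and 36.3 to 54.0), endothelial cells (9.23 to 41.1 and 33.3 to 46.4) and adipocytes (10.5 to 59.8 and 5.10 to 17.6) were summed too, as were those of T cells (26.8 to 134 and 566 to 1145) and NK cells (13.6 to 245.1 and 699.6 to 1657). Positions come from GENCODE M1 on NCBIM37, not the authors' annotation. Promoter letters come from RefSeq on GRCm38.p6. In libraries simulated from the naive OM values, raised to an FPKM of at least 5, changes of 4-fold were planted with little noise. Over 13064 genes, 200 of 200 changed genes were found with 0 false calls. Of profiles planted as near copies of a gene's own, 100 of 100 were found. Such settings all but fix the outcome, and they do not cover genes at a lower FPKM. For the fit of OM against MY with time as block, differences equal at all times were planted with small noise. There 100 of 100 genes planted at 4-fold and 100 of 100 planted at 16-fold were found, with 12 false calls among 13064 genes. These settings too all but fix the outcome and do not give the power of the fit in these libraries. In the data themselves, Lgals1 with a mean log2 difference of 2.28 (SE 0.57, limma adjusted p = 0.0688) did not pass. Lgals7 with 4.49 (SE 1.07, limma adjusted p = 0.0613) did not pass either. How often this fit finds a tissue difference that is unequal between the times was not tested. Alternatives were pseudocounts of 0.1 and 5, 2 rescalings and 2 filters.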

Additional observations from a re-analysis of the deposited data

Results flagged for a closer look

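Lgals1 moved in opposite directions in the tissues by at least 1.5-fold at both times. At 24 h the log2 difference from the naive library was 1.71 in the omentum and -0.81 in the mesentery, and at 7 d it was 2.06 and -0.66. Each value compares 1 library with 1, the naive library is shared between the times, and the difference between the tissues was not tested.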

How the results depend on the processing

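Conditions have no replicate numbers to pair, so the pairing of the tissues was by time. The count of the 8 genes past an adjusted p of 0.05 between the tissues was 0 with the time block and 1 without it (Lgals1, limma adjusted p = 0.048), 1 with a pseudocount of 0.1 (Lgals7, limma adjusted p = 0.0382), and between 0 and 3 with 1 time left out. Over all genes this fit called 1316 genes, 867 with a pseudocount of 5, 301 without the 24 h pair and 219 without the 7 d pair. A log2 value counted as unchanged within 0.58, the log2 of 1.5, and a count within 1.5 times. Of 256 recomputed log2 values of the 8 genes, 229 stayed within this range, 27 moved beyond it and 0 changed sign once past 2-fold. With median-of-ratios scaling 64 of 64 stayed. The moves came mostly with the pseudocount (11 values at 0.1, 13 at 5) and with the sum of 1000000 (3), and concerned Lgals2, Lgals4 and Lgals7. Of 53 recomputed counts of the 8 genes, 42 stayed. With a pseudocount of 0.1 the count past 2-fold became 1 in MY at 7 d against naive (0 as reported) and 2 for every OM against every MY library (1 as reported). With a pseudocount of 5 it became 0 between the naive tissues (2 as reported), 1 in OM at 7 d against 24 h (3 as reported) and 0 for every OM against every MY library. With a sum of 1000000 it became 1 in MY at 7 d against naive. Keeping genes with an FPKM of 1 or more in every library left 5 of the 8 genes, without Lgals2, Lgals4 and Lgals7, and gave 0 between the naive tissues, 3 in OM at 24 h (6 as reported), 1 in OM at 7 d (3 as reported), 4 between the tissues at 24 h (7 as reported) and 1 at 7 d (3 as reported). Counts over all genes moved in 21 of 48 cases, under a pseudocount of 5, a pseudocount of 0.1 or the filter. With a pseudocount of 5 they were 1033 of all genes (2119 as reported) between the naive tissues, 1165 (2396) in OM at 24 h, 699 (1688) in OM at 7 d, 677 (1508) in OM at 7 d against 24 h, 213 (565) in MY at 24 h, 143 (364) in MY at 7 d, 1625 (3145) between the tissues at 24 h and 1174 (2494) at 7 d. With an FPKM of 1 in every library they were, in the same order, 1174, 1424, 629, 770, 329, 204, 1713 and 1023, and with a pseudocount of 0.1 the 5 that moved were 3189 between the naive tissues, 3599 in OM at 24 h, 2399 in OM at 7 d against 24 h, 1242 in MY at 24 h and 912 in MY at 7 d. The cause of these moves was not tested, apart from the fewer genes that the filter leaves.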
